A study of Homo sapiens with 12 samples.

Results

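The 37 genes described here mostly encode the KEAP1-NRF2 regulators and the enzymes that make and use glutathione, thioredoxin and NADPH, or that reduce quinones, carbonyls and aldehydes. They are a list of symbols that uses no measured value as a criterion but was drawn up with earlier results of these data known, and each symbol matched 1 of the 57820 gene rows of the count table. All 37 passed the filter on low counts that left 17096 genes to test. On the libraries of each line taken alone 35 would have passed it: GPX2 fell short in SKOV3 and MDA-MB-231, and AKR1B10 in MDA-MB-231, so these genes were tested through their high level in other lines.

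RNA was sequenced from A549 (lung), SKOV3 (ovary) and MDA-MB-231 (breast), which are established human cancer lines. Each line was made into a stable puromycin-resistant culture with either an empty lentiviral vector (control cells) or a vector for full-length human MYC (MYC cells), and each culture received DMSO or tipifarnib, a farnesyltransferase inhibitor, for 48 h. The dose was 10 µM for A549 and 20 µM for SKOV3 and for MDA-MB-231. Dose and line therefore cannot be told apart wherever treated A549 libraries are set against those of another line. The DMSO libraries had no tipifarnib dose. Differences in level between lines use DMSO and tipifarnib libraries together, so the dose enters them in part. There were 12 libraries in 4 groups of 3, with 1 library per line in each group. No line has a second culture in any group by the labels, so p-values cover only the spread seen among the 12 libraries. A549 carries a mutant KEAP1, but each comparison is of 1 line with another and not of KEAP1 genotypes, which counts do not read.

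Gene counts ran from 20481363 to 26962994 per library. MYC counts checked the vector: MYC cells exceeded control cells in DMSO by 8.46-fold in A549, 10.5-fold in SKOV3 and 4.73-fold in MDA-MB-231. ERBB2 and PAX8, markers of SKOV3, were at 1234 to 5987 and 185 to 281 CPM (reads of a gene scaled to the library's total gene count) there and at most 119.9 and 9.03 elsewhere. The ovarian markers WT1 and MUC16 did not exceed 1.89 and 0.68 CPM in SKOV3, and the lung markers NKX2-1, SFTPB and SFTPC did not exceed 0.35 CPM in A549, which had the highest keratins KRT8, KRT18 and KRT7. WT1, listed for SKOV3, passed as higher in A549 than in both other lines. EPCAM and NAPSA, also listed as markers of A549, did not pass as higher there than in both other lines. MDA-MB-231 had VIM at 911 to 1340.2 CPM and the hormone receptors ESR1 and PGR at no more than 0.29 CPM. VIM and ZEB1, both listed for MDA-MB-231, were lower in A549 than in both other lines. CAV1 and GATA3, also listed for it, passed as neither higher nor lower in A549 than in both. In bulk RNA a lower level can mean fewer cells of a kind or less RNA per cell, which cannot be told apart.

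NRF2, the product of NFE2L2, is a transcription factor that KEAP1 binds and delivers to a ubiquitin ligase, so that little of it is present in unstressed cells. Electrophiles and oxidants modify KEAP1, NRF2 then builds up, pairs with a small MAF protein such as MAFG and binds antioxidant response elements near its target genes, where BACH1 competes as a repressor. Its best known targets supply glutathione, thioredoxin reductase and NADPH and detoxify quinones and aldehydes, and tumours with a disabled KEAP1 hold them at a high level.

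The core of the antioxidant response element is TGACNNNGC, read on either strand. Where its free bases are TCA it also holds the AP-1 site TGACTCA. RefSeq promoters on GRCh38.p14, each running from 250 bases before a start to 50 after it, were found for 29 of the 37 genes, and those of AKR1B10, ALDH3A1, CBR3, GSR, GSS, HMOX1, PRDX1 and TRIM16L were not matched. The core was in at least 1 promoter of 11 genes. By promoter it was in 12 of 43, or 27.9%, against 13.3% of all 35116 RefSeq promoters and 16.1% of 93 promoters of the other pathway genes described further on. The 250 bases before the start are shown for 4 genes on which the results turn, with the core, or GCNNNGTCA for one on the other strand, in capitals. GCLM, ME1 and TXNRD1 differed between lines in their response to tipifarnib, and GPX2 had few reads outside A549. GCLM lies at chr1:93909431-93909680 on the minus strand, ME1 at chr6:83431052-83431301 (minus), the shown TXNRD1 promoter at chr12:104286782-104287031 (plus) and GPX2 at chr14:64942746-64942995 (minus).
GCLM: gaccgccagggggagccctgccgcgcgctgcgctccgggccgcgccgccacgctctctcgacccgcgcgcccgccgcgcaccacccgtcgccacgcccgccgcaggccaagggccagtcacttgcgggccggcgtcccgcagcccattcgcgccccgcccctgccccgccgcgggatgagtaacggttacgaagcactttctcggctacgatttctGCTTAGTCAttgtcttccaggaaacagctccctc
ME1: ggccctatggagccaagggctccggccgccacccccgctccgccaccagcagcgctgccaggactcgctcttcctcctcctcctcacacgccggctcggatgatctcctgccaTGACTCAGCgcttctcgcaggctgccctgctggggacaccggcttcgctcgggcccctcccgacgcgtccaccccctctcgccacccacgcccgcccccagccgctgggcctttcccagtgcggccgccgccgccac
TXNRD1: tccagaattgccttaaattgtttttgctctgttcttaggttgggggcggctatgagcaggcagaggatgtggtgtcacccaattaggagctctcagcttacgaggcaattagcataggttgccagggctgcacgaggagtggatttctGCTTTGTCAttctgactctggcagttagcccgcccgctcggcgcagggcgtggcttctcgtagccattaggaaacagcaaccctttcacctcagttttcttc
GPX2: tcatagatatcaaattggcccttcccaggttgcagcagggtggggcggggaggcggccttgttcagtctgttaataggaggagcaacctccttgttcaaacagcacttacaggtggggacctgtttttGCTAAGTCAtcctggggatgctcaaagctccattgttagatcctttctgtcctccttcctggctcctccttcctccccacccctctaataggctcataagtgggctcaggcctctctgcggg
The cores shown end 26 bases before the start in GCLM, 129 in ME1, 94 in TXNRD1 and 114 in GPX2. ME1 had a further core 11 to 19 bases after the start, and the TXNRD1 promoter not shown had 2. A match is a stretch of letters and does not show binding. The genes shown were taken from those that hold the core, and others whose response differed between lines, GCLC, OSGIN1, AKR1C1, AKR1C2, AKR1C3 and UGDH, had no match in the promoters found.

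The first question was how far the lines differ in the level of these genes. Most of them were higher in A549: 22 of 37 were higher in A549 than in both other lines, where 15.3% of all genes tested were, and 2 were lower than in both (12.7% of all genes). Against SKOV3 22 were higher and 4 lower in A549 (29.6% and 28.5% of all genes), with a median log2 difference of 0.87 against -0.003 over all genes. Against MDA-MB-231 27 were higher and 5 lower (30.4% and 26.9%), with a median of 1.57 against 0.043. GPX2 and AKR1B10 are in each of these counts of genes higher in A549. GPX2 against both lines and AKR1B10 against MDA-MB-231 were tested through their high level elsewhere, so that outcome was largely set in advance. SKOV3 was above MDA-MB-231 for 16 and below it for 8 (32.3% and 29.3%). The comparisons share libraries, so their counts are not independent. Each difference is given on the log2 scale ± its standard error in the edgeR fit over the 4 libraries of each line, and a gene passed where its Benjamini-Hochberg adjusted p was under 0.05. In each list of values by library the order is control cells in DMSO, control cells in tipifarnib, MYC cells in DMSO and MYC cells in tipifarnib, all in CPM of total gene counts.

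**Figure D1:**
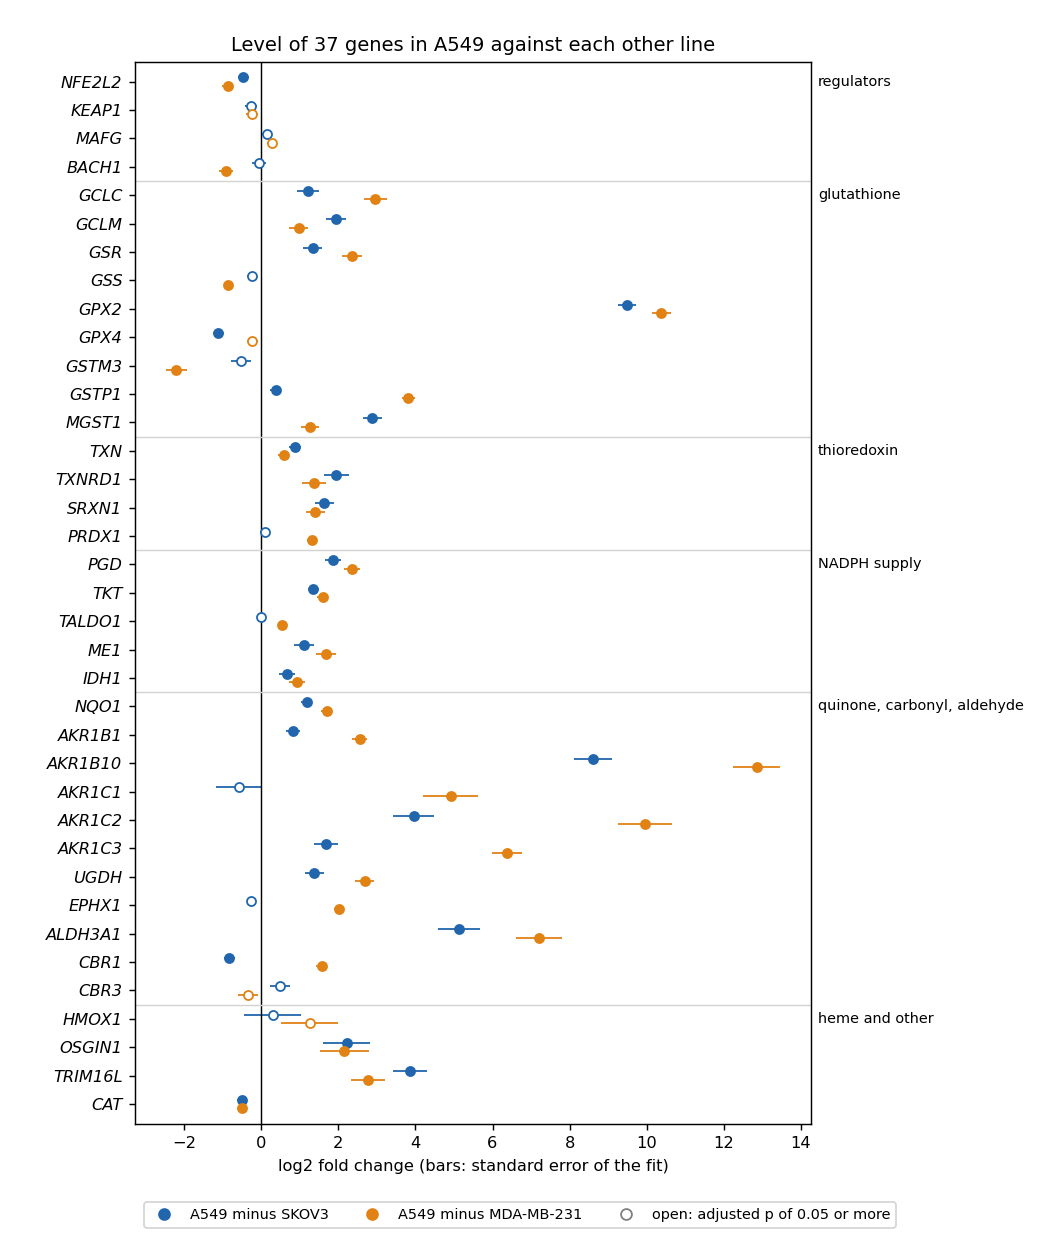
Log2 difference in level between A549 and SKOV3 (blue) or MDA-MB-231 (orange) for the 37 genes, grouped by role. Points are edgeR estimates over 4 libraries per line, bars their standard errors, and filled points passed at an adjusted p under 0.05. Of the filled points 22 against SKOV3 and 27 against MDA-MB-231 lie to the right of 0, and those of NFE2L2 and CAT lie to the left in both.

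The regulators did not share the pattern. NFE2L2, which encodes NRF2 itself, was at 66.3, 71.5, 87.5 and 68.9 CPM in A549, 108, 122, 96.4 and 131 in SKOV3, with MDA-MB-231 at 113, 169, 127 and 162. All 4 A549 libraries lay below every library of the other lines, by -0.47 ± 0.14 against SKOV3 (edgeR adjusted p = 0.0156) and -0.87 ± 0.14 against MDA-MB-231 (adjusted p = 0.000508). NRF2 is set mainly by protein turnover, which RNA counts do not measure. KEAP1 was at 91.4, 73.0, 101 and 81.8 CPM in A549, 101, 117, 114 and 130.2 in SKOV3, while MDA-MB-231 had 128, 109, 109.7 and 85.5. Its ranges overlapped between A549 and MDA-MB-231 and nearly met between A549 and SKOV3, and no pair of lines passed the test. MAFG, the small MAF partner, did not pass in any pair of lines. BACH1, the repressor, was lower in A549 than in MDA-MB-231 (-0.91 ± 0.18) and did not pass against SKOV3 (-0.06 ± 0.18). Exons of NFE2L2 share 17.6% of their bases with another gene of the same strand in GENCODE v29, so a part of its reads may be left out or credited elsewhere.

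Of the 9 genes of glutathione synthesis and use, 6 were higher in A549 than in both other lines. GCLC, the catalytic subunit of glutamate-cysteine ligase, was at 256, 145, 221 and 137 CPM in A549. It stood at 67.7, 103, 88.8 and 115 in SKOV3, with MDA-MB-231 at 18.4, 28.2, 20.1 and 40.4. The 3 lines formed 3 levels with no overlap, and A549 was above SKOV3 by 1.21 ± 0.29 and above MDA-MB-231 by 2.96 ± 0.31. GCLM, the modifier subunit of the same enzyme, was at 224, 202, 267 and 178 CPM in A549, 52.7, 71.4, 46.6 and 94.9 in SKOV3, while MDA-MB-231 had 91.6, 174, 81.7 and 152. Here SKOV3 was the lowest line, -0.98 ± 0.25 against MDA-MB-231, so the subunits of 1 enzyme had different orders among the lines. GPX2, a glutathione peroxidase, was at 291, 108, 315 and 189 CPM in A549, while all libraries of SKOV3 held between 5 and 10 reads of it and those of MDA-MB-231 between 1 and 6. A fitted fold against so few reads depends on the prior count and is not given. GSTP1, a glutathione transferase, passed with a small difference between A549 and SKOV3 (701 to 889 and 588 to 791 CPM, 0.38 ± 0.14) but at 48.1 to 70.2 CPM in MDA-MB-231 (3.82 ± 0.16 for A549 minus MDA-MB-231). GSR, which reduces oxidised glutathione, and MGST1, a microsomal transferase, were higher in A549 by 1.33 ± 0.24 and 2.88 ± 0.25 against SKOV3. The remaining members went the other way or did not pass: GSS, the second enzyme of glutathione synthesis, and the transferase GSTM3 were lower in A549 than in MDA-MB-231 (-0.86 ± 0.12 and -2.20 ± 0.27), and GPX4, which reduces lipid peroxides, was lower than in SKOV3 (-1.12 ± 0.14).

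In the thioredoxin group 3 of 4 genes were higher in A549 than in both lines. TXNRD1, thioredoxin reductase, was at 2122, 2572, 3897 and 3912 CPM in A549, 621, 1405, 555 and 1447 in SKOV3, with MDA-MB-231 at 660.1, 2219, 743 and 2399.6. The 2 tipifarnib libraries of MDA-MB-231 fell between the lowest and the highest A549 library, the only overlap with A549, and the differences over all libraries were 1.95 ± 0.32 against SKOV3 and 1.37 ± 0.32 against MDA-MB-231. SRXN1, sulfiredoxin, which repairs over-oxidised peroxiredoxins, was low, at 9.54, 8.23, 9.11 and 11.6 CPM in A549, 3.12, 2.97, 2.61 and 5.91 in SKOV3, while MDA-MB-231 had 2.56, 4.88, 2.50 and 6.49. No library of another line reached the A549 range (1.64 ± 0.25 and 1.40 ± 0.25), but 85% of its exon bases are shared with another gene of the same strand, so its counts are uncertain. TXN, thioredoxin, was higher in A549 by 0.87 ± 0.15 and 0.58 ± 0.15. The peroxiredoxin PRDX1 was higher than in MDA-MB-231 (1.32 ± 0.13) and did not pass against SKOV3 (0.10 ± 0.12).

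Among the 5 genes listed under NADPH supply, PGD, TKT, ME1 and IDH1 were higher in A549 than in both lines. PGD, of the oxidative pentose phosphate pathway, ranged over 1099 to 1511 CPM in A549, 315 to 508 in SKOV3 and 197 to 384 in MDA-MB-231. Transketolase (TKT) had 1232 to 1769, 642 to 721 and 427 to 647 CPM in the same order. In neither gene did a library of another line reach A549. Malic enzyme (ME1) differed by 1.10 ± 0.26 and 1.68 ± 0.26, and IDH1, the cytosolic isocitrate dehydrogenase, by 0.67 ± 0.21 and 0.93 ± 0.21. Both overlapped between A549 and SKOV3. For ME1 the SKOV3 library of MYC cells in tipifarnib was above the lowest A549 library. For IDH1 the SKOV3 tipifarnib libraries were within or above the A549 range, so the difference from SKOV3 rests on the DMSO libraries. Transaldolase (TALDO1) was higher than in MDA-MB-231 alone (0.54 ± 0.11; -0.01 ± 0.11 against SKOV3).

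Of the 11 enzymes of quinone, carbonyl and aldehyde metabolism 7 were higher in A549 than in both lines. NQO1, the quinone reductase commonly read as an NRF2 target, was at 1402, 1259, 1172 and 1175 CPM in A549, 710.1, 712, 474 and 607 in SKOV3, with MDA-MB-231 at 383, 583, 310.0 and 389. A549 was above both without overlap (1.18 ± 0.14 and 1.70 ± 0.14), while SKOV3 and MDA-MB-231 overlapped. AKR1B10, an aldo-keto reductase, was at 2752, 1528, 1342 and 1320.3 CPM in A549 and 6.56, 5.85, 6.47 and 1.61 in SKOV3, a log2 difference of 8.62 ± 0.49. In MDA-MB-231 it had 1, 13, 1 and 7 reads, so no fold is given. AKR1C1, a related reductase, went another way: 309.9, 172, 212 and 192 CPM in A549, 362, 497, 278 and 593 in SKOV3, while MDA-MB-231 had 1.74, 23.7, 1.86 and 18.0. It did not pass between A549 and SKOV3 (-0.59 ± 0.59, edgeR adjusted p = 0.412) and was higher in both than in MDA-MB-231 (4.91 ± 0.72 and 5.50 ± 0.71). AKR1C2 was at 2646, 1175, 1963 and 1167 CPM in A549, 101, 121, 120.2 and 182 in SKOV3, with MDA-MB-231 at 0.46, 4.0, 0.73 and 2.89, and AKR1C3 spanned 806 to 1632, 357 to 428 and 6.63 to 27.3 CPM. The AKR1C genes are near-identical in sequence, so the division of reads among them is uncertain.

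ALDH3A1, an aldehyde dehydrogenase, was at 1015, 832, 342 and 1153 CPM in A549, 85.1, 22.2, 17.7 and 8.88 in SKOV3, while MDA-MB-231 had 9.92, 10.9, 2.63 and 3.45, differences of 5.13 ± 0.55 and 7.21 ± 0.60. UGDH, which makes UDP-glucuronate for conjugation, and AKR1B1, aldose reductase, were also higher in A549 (1.38 ± 0.24 and 0.83 ± 0.18 against SKOV3, 2.68 ± 0.25 and 2.55 ± 0.19 against MDA-MB-231). Carbonyl reductase CBR1 was lower in A549 than in SKOV3 (-0.83 ± 0.14) and higher than in MDA-MB-231 (1.57 ± 0.15). The epoxide hydrolase EPHX1 passed against MDA-MB-231 (2.02 ± 0.12) and not against SKOV3 (-0.26 ± 0.12). CBR3, at 2.79 to 4.96 CPM in A549, passed against neither, and 42.2% of its exon bases lie opposite an antisense gene. Exon bases of PRDX1 (24.9%), CBR1 (18.9%) and NQO1 (17.7%) also lie opposite another gene. The sources used here do not state whether counting used strand.

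Of the last 4 genes, OSGIN1, an oxidative stress induced growth inhibitor, was at 58.4, 34.9, 155 and 48.0 CPM in A549, 13.7, 23.4, 12.3 and 25.5 in SKOV3, with MDA-MB-231 at 9.74, 33.8, 6.46 and 27.7. All A549 libraries were above all others (2.21 ± 0.61 and 2.16 ± 0.63), the closest being 34.9 against 33.8 CPM in control cells with tipifarnib. Exons of OSGIN1 share 13.9% of their bases with another gene of the same strand, so its counts have the limit given for NFE2L2. TRIM16L, a TRIM family gene, was at 301, 283, 305 and 277 CPM in A549, 21.0, 27.9, 18.8 and 28.3 in SKOV3, while MDA-MB-231 had 21.2, 102, 15.7 and 91.4, again without overlap (3.86 ± 0.45 and 2.77 ± 0.44). Catalase (CAT) was the other member lower in A549 than in both lines, by -0.51 ± 0.12 and -0.50 ± 0.12. HMOX1, heme oxygenase, which breaks down heme, passed in no pair of lines. Its values, given with the responses to tipifarnib, were spread widely within SKOV3 and MDA-MB-231.

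The next question was what tipifarnib did to these genes in each line. The lines differed: 14 of 37 rose and 2 fell in SKOV3, 18 rose and 1 fell in MDA-MB-231, and none rose and 7 fell in A549. Among all genes tested 6.57% rose and 7.48% fell in SKOV3, with 10.6% and 12.1% in MDA-MB-231, and 3.56% and 4.47% in A549. In A549 the edgeR test also gave 0 rises and 14 falls at an unadjusted p under 0.05. The share of all genes at an unadjusted p is not given, here or further on. Such counts therefore cannot be judged against all genes. The median log2 change of the 37 was 0.31 in SKOV3, 0.49 in MDA-MB-231 and -0.19 in A549, where that of all genes was -0.020, 0.000 and 0.000. In every call within a line, control and MYC cells moved the same way. Each line had 2 pairs of tipifarnib and DMSO libraries, and the spread, shared over the lines, rests on 3 residual degrees of freedom. Without any 1 library of a line these counts fell to 4 in A549, to between 4 and 11 in SKOV3 and to between 8 and 10 in MDA-MB-231. The line then had 1 complete pair and the fit fewer residual degrees of freedom.

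**Figure D2:**
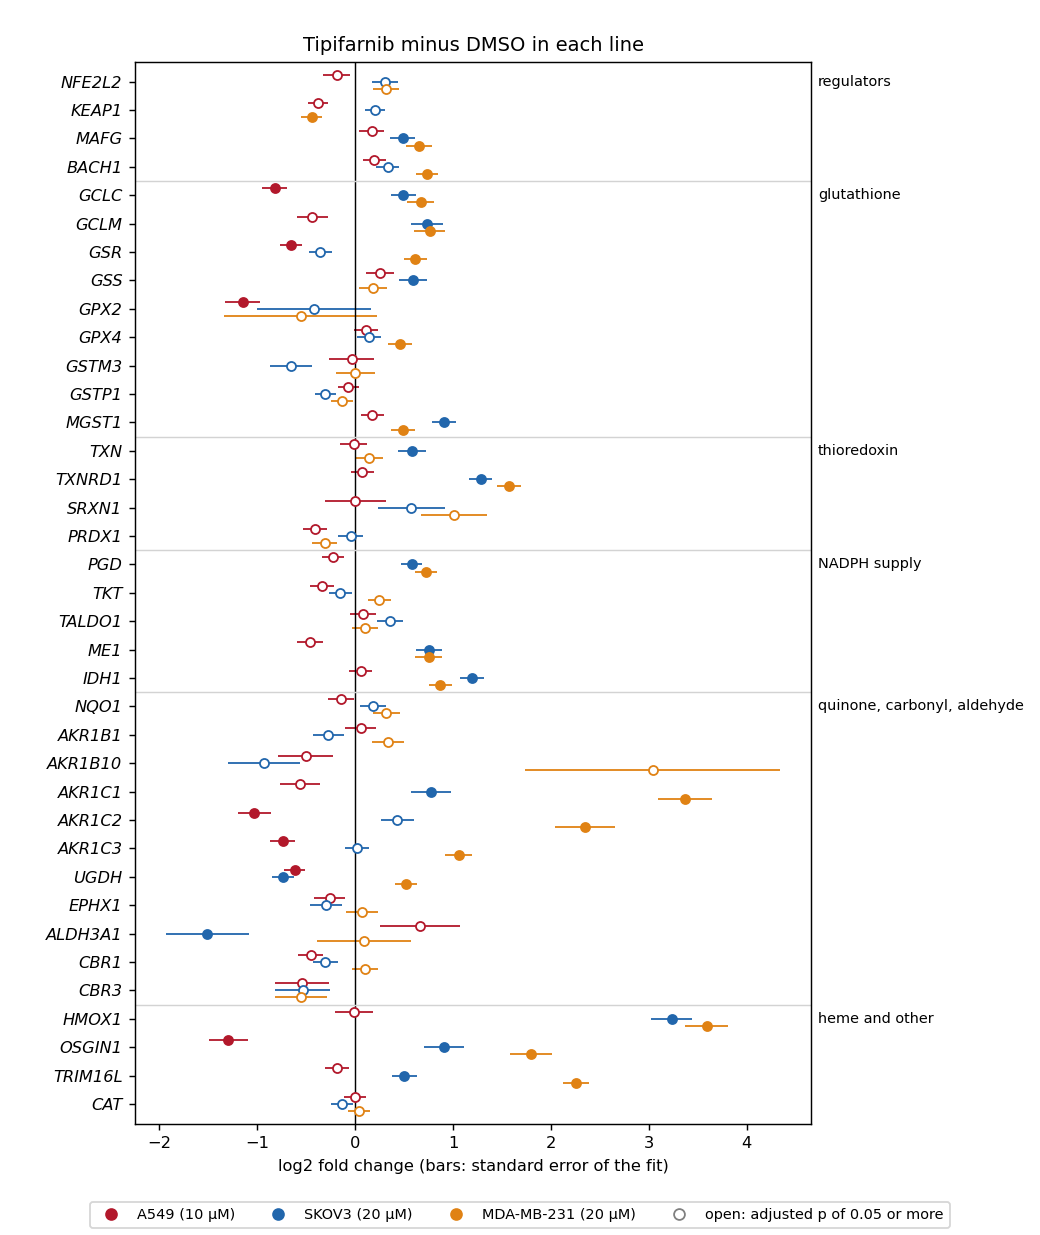
Log2 change with tipifarnib within A549 (10 µM, red), SKOV3 (20 µM, blue) and MDA-MB-231 (20 µM, orange) for the 37 genes. Points are edgeR estimates from 2 pairs per line, bars their standard errors, and filled points passed at an adjusted p under 0.05. The filled red points all lie left of 0, and the filled blue and orange points lie right of 0 except ALDH3A1 and UGDH in SKOV3 and KEAP1 in MDA-MB-231.

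The 14 genes that rose in SKOV3 and the 18 that rose in MDA-MB-231 had 12 in common, AKR1C1, GCLC, GCLM, HMOX1, IDH1, MAFG, ME1, MGST1, OSGIN1, PGD, TRIM16L and TXNRD1. Of all genes tested 2.33% rose in both. The 12 are 12 of 14 and 12 of 18 of the members that rose, where the 399 genes are 399 of 1123 and 399 of 1811 over all genes. These lines have no library in common, but both tests use the same fit and a spread per gene shared over the lines. The 2 sets of calls are therefore not independent.

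HMOX1 changed most among the genes with a passing response in both lines. From DMSO to tipifarnib it went from 24.6 to 202 CPM in SKOV3 control cells and from 36.0 to 385 in SKOV3 MYC cells. In MDA-MB-231 the same steps were 11.1 to 187 and 12.5 to 132 CPM. A549 went from 98.5 to 132 CPM in control cells and from 59.1 to 47.4 in MYC cells. The tipifarnib libraries of SKOV3 and MDA-MB-231 were thus above their own DMSO libraries without overlap, while the A549 pairs moved in opposite directions. The changes were 3.23 ± 0.21 in SKOV3 (edgeR adjusted p = 0.000163), 3.59 ± 0.22 in MDA-MB-231 (adjusted p = 5.92e-05) and -0.01 ± 0.19 in A549. In DMSO, HMOX1 of control cells was at 25.0% of the A549 level in SKOV3 and 11.3% in MDA-MB-231. With tipifarnib it stood at 206% and 190.0% of that A549 DMSO level.

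TXNRD1 rose by 1.57 ± 0.12 in MDA-MB-231 and 1.28 ± 0.12 in SKOV3, and its change in A549 was 0.07 ± 0.12. In MDA-MB-231 control cells it went from 31.1% to 105% of the A549 DMSO level. TXN rose in SKOV3 alone by the test within lines (0.58 ± 0.14; 0.15 ± 0.14 in MDA-MB-231 and -0.02 ± 0.14 in A549), and its responses did not differ between lines by the test of the difference. SRXN1 was at 1.01 ± 0.34 in MDA-MB-231 and 0.57 ± 0.34 in SKOV3 and passed in neither. PRDX1 passed in no line.

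The ligase subunits moved together within each of the 20 µM lines. GCLC rose by 0.49 ± 0.13 and GCLM by 0.73 ± 0.16 in SKOV3, and by 0.67 ± 0.14 and 0.76 ± 0.16 in MDA-MB-231. In A549 GCLC fell by 0.82 ± 0.13 on the log2 scale (edgeR adjusted p = 0.00967), from 256 to 145 CPM in control cells and from 221 to 137 in MYC cells, and GCLM was at -0.44 ± 0.16 without passing. GSR fell in A549 (-0.66 ± 0.11), rose in MDA-MB-231 (0.61 ± 0.12) and did not pass in SKOV3 (-0.35 ± 0.11). GPX2 fell in A549 (-1.15 ± 0.17), to 0.37 of its DMSO level in control cells and 0.60 in MYC cells, and it had too few reads elsewhere for a response to be detectable. MGST1 rose in both other lines (0.90 ± 0.12 in SKOV3 and 0.49 ± 0.12 in MDA-MB-231). GSS rose in SKOV3 (0.59 ± 0.14) and GPX4 in MDA-MB-231 (0.46 ± 0.12), while GSTP1 and GSTM3 passed in no line.

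Of the genes listed under NADPH supply PGD, ME1 and IDH1 rose in both 20 µM lines and none passed in A549. IDH1 went from 104 to 225 CPM in SKOV3 control cells and from 91.7 to 194 in MDA-MB-231, changes of 1.19 ± 0.12 and 0.87 ± 0.12 over the line's libraries. ME1 rose by 0.76 ± 0.13 and 0.75 ± 0.14 and PGD by 0.58 ± 0.11 and 0.72 ± 0.11. TKT and TALDO1 passed in no line.

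**Figure D3:**
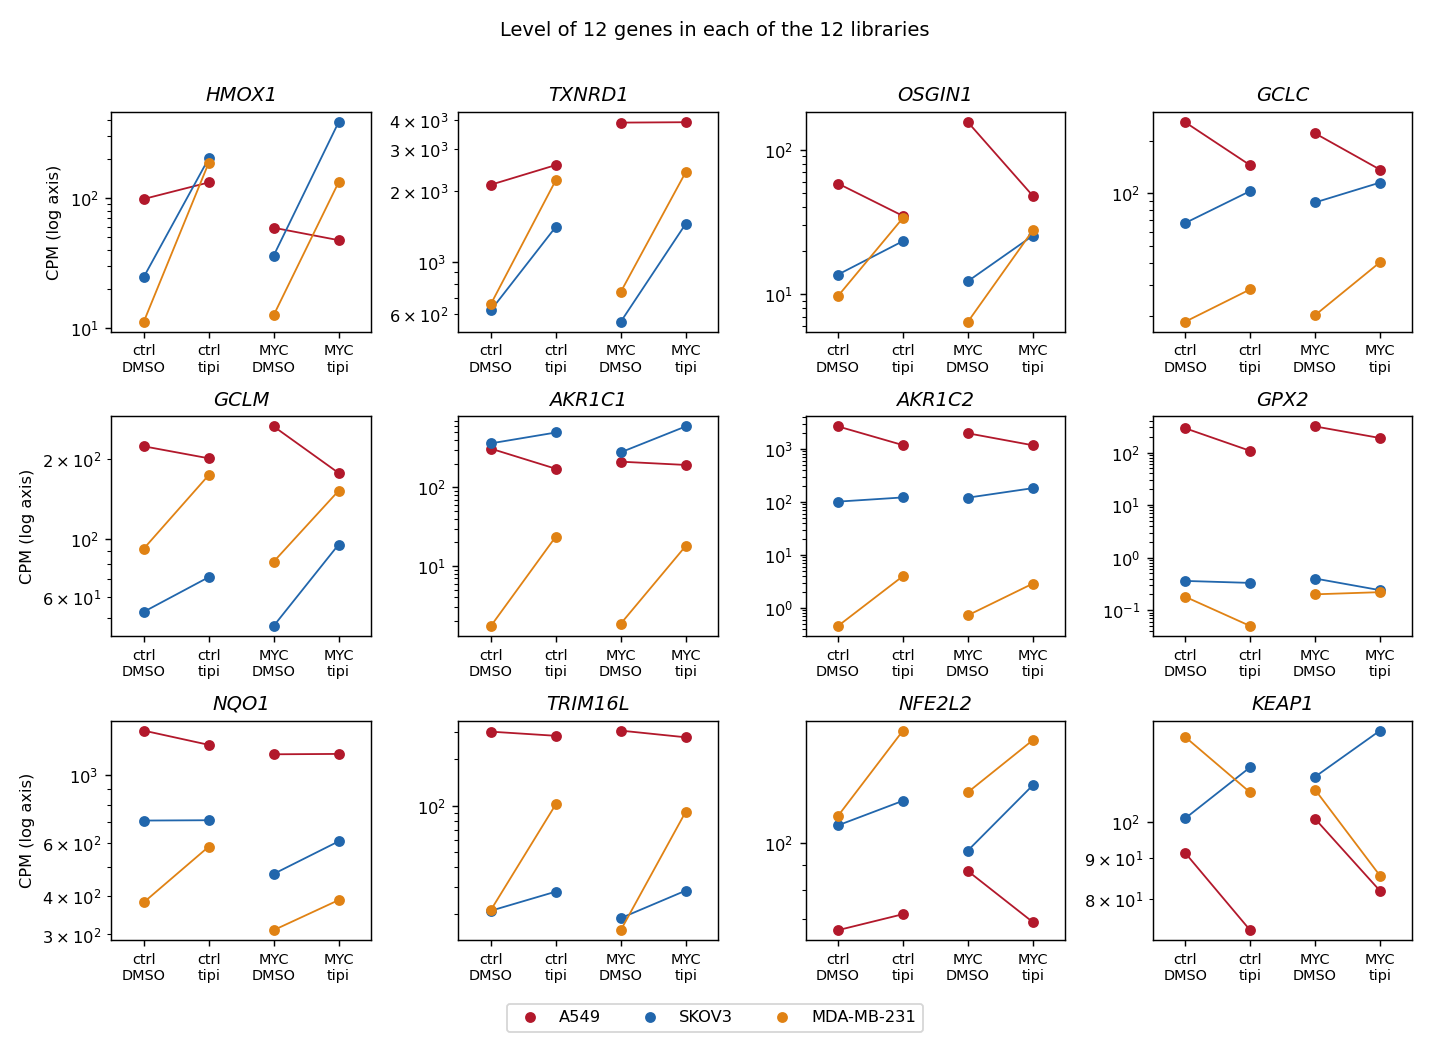
Level in CPM (log axis, with its own range in each panel) of 12 genes in the 12 libraries; lines join the DMSO and tipifarnib libraries of 1 culture, A549 in red, SKOV3 in blue and MDA-MB-231 in orange. HMOX1 and TXNRD1 rise in blue and orange and GCLC falls in red, whereas NFE2L2 and KEAP1 span a far narrower range.

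The AKR1C reductases moved differently from line to line. AKR1C1, of that family, rose by 3.37 ± 0.27 in MDA-MB-231, from 1.74 to 23.7 CPM in control cells and from 1.86 to 18.0 in MYC cells. It rose by 0.78 ± 0.20 in SKOV3 and was at -0.56 ± 0.20 in A549, not passing. AKR1C2 and AKR1C3 rose in MDA-MB-231 (2.34 ± 0.31 and 1.06 ± 0.14) and fell in A549 (-1.03 ± 0.17 and -0.74 ± 0.13). Even after its rise AKR1C1 in MDA-MB-231 control cells was at 7.66% of the A549 DMSO level, and AKR1C2 at 0.15%. UGDH fell in A549 (-0.61 ± 0.11) and SKOV3 (-0.74 ± 0.11) and rose in MDA-MB-231 (0.52 ± 0.11). ALDH3A1 fell in SKOV3 (-1.51 ± 0.42). NQO1 passed in no line, at 0.32 ± 0.13 in MDA-MB-231, 0.18 ± 0.13 in SKOV3 and -0.14 ± 0.13 in A549, and neither did AKR1B1, AKR1B10, CBR1, CBR3 or EPHX1.

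OSGIN1 had passing responses of opposite sign: it fell in A549 by 1.30 ± 0.20 on the log2 scale and rose in SKOV3 (0.91 ± 0.21) and MDA-MB-231 (1.80 ± 0.21). TRIM16L rose in MDA-MB-231 by 2.25 ± 0.13, from 21.2 to 102 CPM in control cells, and in SKOV3 by 0.50 ± 0.13. Among the regulators MAFG rose in SKOV3 and MDA-MB-231 (0.49 ± 0.13 and 0.65 ± 0.13), BACH1 rose in MDA-MB-231 (0.74 ± 0.11) and KEAP1 fell there (-0.44 ± 0.10). NFE2L2 passed in no line (-0.19 ± 0.14, 0.30 ± 0.14 and 0.32 ± 0.14 in A549, SKOV3 and MDA-MB-231). CAT did not pass in any line.

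The differences between the lines' responses were tested directly. The response was lower in A549 than in SKOV3 for 10 of the 37 genes and higher for none, where 1.42% of all genes were lower and 1.98% higher. It was lower in A549 than in MDA-MB-231 for 14 and higher for none (0.854% and 0.872% of all genes). At an unadjusted p under 0.05 the edgeR test had 1 member with a higher response in A549 than in SKOV3 and 0 than in MDA-MB-231. Both comparisons use the A549 libraries and both set 10 µM against 20 µM. For HMOX1 the response in A549 minus that in SKOV3 was -3.25 ± 0.28 (log2, edgeR adjusted p = 0.00307), and minus that in MDA-MB-231 it was -3.60 ± 0.29 (adjusted p = 0.00125). OSGIN1 differed by -2.20 ± 0.29 and -3.09 ± 0.29, TXNRD1 by -1.21 ± 0.17 and -1.50 ± 0.17, and GCLC by -1.32 ± 0.18 and -1.49 ± 0.19. At the same dose of 20 µM, SKOV3 and MDA-MB-231 differed for 7 members, with 1 response higher in SKOV3 (KEAP1) and 6 lower (3.49% and 3.85% of all genes). The 6 were AKR1C1, AKR1C2, AKR1C3, GSR, TRIM16L and UGDH. Without any 1 library of MDA-MB-231 the 14 members became 2, HMOX1 and TRIM16L, whereas without 1 library of A549 there were between 10 and 15. The 10 members became 4 without either MYC library of SKOV3 and 6 without the A549 MYC library in DMSO. The 7 became 1 or 0 without 1 library of MDA-MB-231 and 4 without either MYC library of SKOV3.

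Averaged over the 3 lines, 5 members rose with tipifarnib and 1 fell (4.66% and 6.63% of all genes). HMOX1 rose by 2.40 ± 0.64 in 5 of 6 pairs, TXNRD1 by 0.97 ± 0.26 in 6 of 6, IDH1 by 0.71 ± 0.17 in 5 of 6, MAFG by 0.44 ± 0.10 in 6 of 6 and GSS by 0.34 ± 0.10 in 6 of 6, while GPX2 changed by -1.0 ± 0.18, in 5 of 6 pairs and almost wholly on A549 reads. The test treats both pairs of 1 line as independent, although they come from the same line. None passed on control cells or on MYC cells alone, none without MDA-MB-231 and 1 without SKOV3, and 9 passed without A549.

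The last design question was how MYC changed these genes and whether it changed their response to tipifarnib. Over the lines none of the 37 rose and 1 fell (4.50% and 2.84% of all genes). The member was EPHX1, at -0.38 ± 0.10 and lower in MYC cells in 5 of 6 pairs. At an unadjusted p under 0.05 the edgeR test had 2 rises and 5 falls, and at an adjusted p DESeq2 called 4 members and limma-voom 2. The shares of all genes under these settings are not given, so these counts cannot be judged against them. None of the 37 passed for the interaction of MYC with tipifarnib, nor did any gene of the 17096 (0%). At an unadjusted p under 0.05 the edgeR test had 0 members, and DESeq2 and limma-voom called 0 members at an adjusted p under 0.05. Some interaction estimates were imprecise, with HMOX1 at 0.28 ± 1.09, AKR1C1 at 0.37 ± 0.96 and ALDH3A1 at 1.47 ± 0.77 (log2). Others had smaller errors, such as NQO1 at 0.11 ± 0.22. The absence of calls therefore does not show that MYC left the responses unchanged. Without any 1 of the 3 lines, and on DMSO or tipifarnib libraries alone, no member passed for MYC over the lines.

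**Figure D4:**
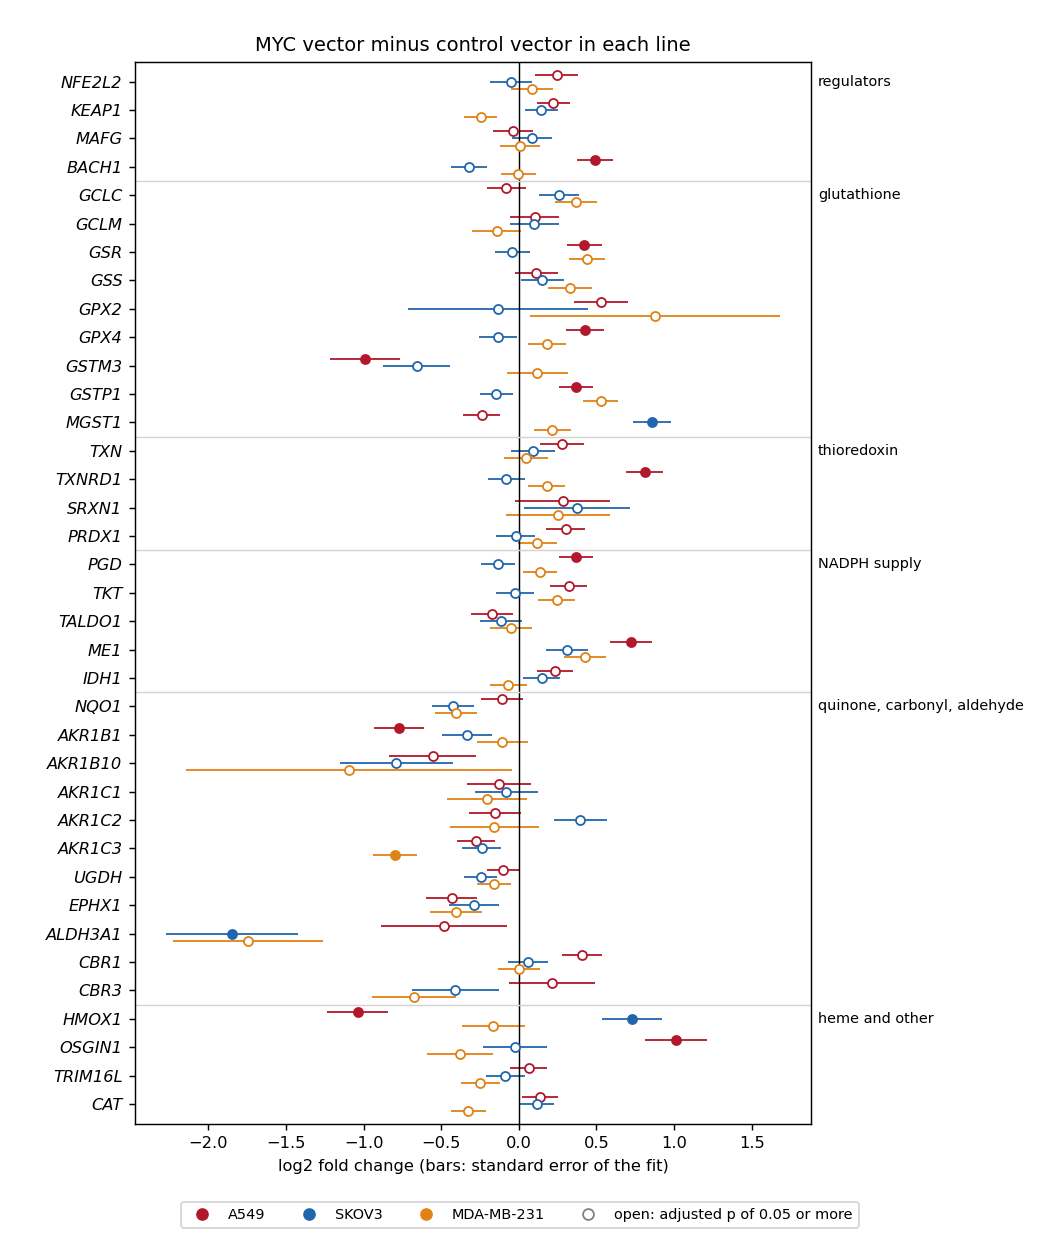
Log2 change with the MYC vector within A549 (red), SKOV3 (blue) and MDA-MB-231 (orange) for the 37 genes. Points are edgeR estimates from 2 pairs per line, bars their standard errors, and filled points passed at an adjusted p under 0.05. Filled points number 11 for A549, 3 for SKOV3 and 1 for MDA-MB-231.

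Within lines, more members passed for MYC in A549 than in the other lines, and so did more of all genes. In A549 8 members rose and 3 fell (9.94% and 7.80% of all genes). TXNRD1 rose from 2122 to 3897 CPM in DMSO and from 2572 to 3912 in tipifarnib (0.81 ± 0.12, edgeR adjusted p = 0.002). OSGIN1 rose by 1.01 ± 0.20, from 58.4 to 155 CPM in DMSO and from 34.9 to 48.0 in tipifarnib, and ME1 by 0.72 ± 0.13. Smaller rises passed for BACH1 (0.49 ± 0.12), GPX4 (0.43 ± 0.12), GSR (0.42 ± 0.11), GSTP1 (0.37 ± 0.11) and PGD (0.37 ± 0.11). HMOX1 fell by 1.04 ± 0.20, GSTM3 by 0.99 ± 0.23 and AKR1B1 by 0.77 ± 0.16 on the log2 scale. In SKOV3 MGST1 and HMOX1 rose (0.86 ± 0.12 and 0.73 ± 0.20) and ALDH3A1 fell (-1.85 ± 0.43), against 4.58% and 4.50% of all genes. These SKOV3 counts and the 3 falls in A549 were near the shares of all genes and do not set the members apart. In MDA-MB-231 AKR1C3 fell (-0.80 ± 0.14), and none rose, against 0.831% and 0.813% of all genes, with 5 rises and 7 falls at an unadjusted p under 0.05 in edgeR. HMOX1 passed with opposite signs in A549 and SKOV3, and the difference between MYC effects of the lines was not tested. Without any 1 A549 library the 11 became 3 (without either DMSO library) or 7 (without either tipifarnib library), without a SKOV3 DMSO library its 3 became 0, and without any 1 MDA-MB-231 library its 1 became 0.

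A further 82 genes of the same pathways were listed, of which 78 were tested, to set the members beside their pathway. Of these 38 were higher and 10 lower in A549 than in SKOV3 (29.6% and 28.5% of all genes), and 40 higher and 11 lower than in MDA-MB-231 (30.4% and 26.9%). Among the NRF2 target list 12 of 23 were higher in A549 than in both lines (15.3% of all genes) and none lower (12.7%). The 12 include CES1 and NR0B1, with 0 reads in every MDA-MB-231 library, and CYP4F11, with 1, 21, 1 and 23 reads there. Against MDA-MB-231 these genes were tested through their reads in other lines, so that outcome was largely set in advance. The drug exporter ABCC2 was higher in A549 by 6.75 ± 0.47 than in SKOV3. PRDX2, a cytosolic peroxiredoxin, was the reverse: 0.00 to 0.12 CPM in A549, against 27.8 to 64.8 in SKOV3 and 34.1 to 46.0 in MDA-MB-231.

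With tipifarnib 7 of the 78 rose and 4 fell in A549, 19 rose and 9 fell in SKOV3, and 25 rose and 9 fell in MDA-MB-231. The shares of all genes were 3.56% and 4.47% for A549, 6.57% and 7.48% for SKOV3, and 10.6% and 12.1% for MDA-MB-231. SQSTM1, the autophagy receptor that binds KEAP1, rose in all 3 lines, by 1.88 ± 0.14 in MDA-MB-231, 1.31 ± 0.13 in SKOV3 and 0.78 ± 0.13 in A549. The small MAF gene MAFF also rose in A549, SKOV3 and MDA-MB-231 (0.87 ± 0.22, 1.96 ± 0.21 and 1.14 ± 0.20). FTL, the ferritin light chain, was at 5961, 4172, 7939.6 and 5255 CPM in A549, 2015, 3773, 1886 and 3295 in SKOV3, with MDA-MB-231 at 1344, 4507, 2038 and 5344. It fell in A549 (-0.62 ± 0.12) and rose in SKOV3 (0.86 ± 0.12) and MDA-MB-231 (1.42 ± 0.12), and its response in A549 was lower than in SKOV3 and MDA-MB-231 by the tests of the difference (-1.48 ± 0.17 and -2.04 ± 0.17). The pirin gene PIR and TRIM16 were likewise lower in A549 than in MDA-MB-231 (-1.79 ± 0.18 and -1.90 ± 0.22). Of the other thioredoxin and peroxide genes PRDX5 rose over the 3 lines (0.64 ± 0.10), and PRDX3 and TXN2 of the mitochondrial thioredoxin system fell (-0.49 ± 0.08 and -0.39 ± 0.08). With MYC 8 rose and 1 fell over the lines (4.50% and 2.84% of all genes), among the rises GGCT, of glutathione breakdown (0.72 ± 0.10), and RPIA, of the pentose phosphate pathway (0.65 ± 0.12).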

How the data were processed

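RNA of 12 cultures was sequenced after library preparation with a SMARTER mRNA-Seq kit, per the labels' protocols. The authors deposited 1 table in which each library has a column of raw read counts, unscaled whole numbers for each gene; TopHat2, HTSeq, DESeq2 and hg19 are named in the submitters' processing notes, and their versions and settings are not given in the sources used here. HTSeq summary rows, between 17.5% and 19.9% of a library's total, were left out. Between 20481363 and 26962994 gene counts per library remained, which limits precision mainly for genes with few reads.

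The 37 members, their roles, the other pathway lists and the marker lists were chosen with earlier results of these data known. Named genes were the 37 members and, of each other pathway list, up to 3 genes with the smallest p that passed in a comparison. One gene that this rule names is not reported here. Symbols came from the names of the count table's Ensembl identifiers in an annotation on GRCh38, so gene positions on hg19 are not printed. Of the listed genes GSTT1, PECAM1, SOD2 and TXNIP were not matched to a single row.

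Genes were kept with filterByExpr over the 4 groups (17096 left) and TMM set the library scaling. Differences were tested by quasi-likelihood in edgeR 4.0.16 under R 4.3.3, with Benjamini-Hochberg adjustment over all genes and a threshold of 0.05. Levels between lines and effects over lines came from a model of line and group (6 residual degrees of freedom). Effects within a line came from a model giving each line its own MYC and tipifarnib effects (3 residual degrees of freedom), whose error is the interaction of MYC and tipifarnib. CPM are counts over the library's gene total. Line is the block: libraries of 1 line in different groups deviated together (r from 0.829 to 0.922 across genes in 18 pairs; other lines -0.551 to -0.307 in 36). Alternatives used DESeq2 1.42.0, limma 3.58.1, other scaling, no filter, no block and left-out libraries. The scripts were tested on simulated counts whose spread was smaller than that found by the model of line and group. That checks the code and does not give error rates for these data.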

Additional observations from a re-analysis of the deposited data

Results flagged for a closer look

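A response to tipifarnib that differs between lines marks each result here. The log2 response to tipifarnib was lower in A549 (10 µM) than in SKOV3 (20 µM) by the edgeR test of the difference in 10 genes: HMOX1 -3.25 ± 0.28, OSGIN1 -2.20 ± 0.29, AKR1C2 -1.46 ± 0.24, AKR1C1 -1.34 ± 0.29, GCLC -1.32 ± 0.18, ME1 -1.22 ± 0.19, TXNRD1 -1.21 ± 0.17, GCLM -1.17 ± 0.23, IDH1 -1.13 ± 0.17 and PGD -0.81 ± 0.15. The adjusted p ran from 0.00307 to 0.0407. It was lower in A549 than in MDA-MB-231 (20 µM) in 14 genes: AKR1C1 -3.93 ± 0.34, HMOX1 -3.60 ± 0.29, AKR1C2 -3.37 ± 0.35, OSGIN1 -3.09 ± 0.29, TRIM16L -2.44 ± 0.17, AKR1C3 -1.80 ± 0.19, TXNRD1 -1.50 ± 0.17, GCLC -1.49 ± 0.19, GSR -1.27 ± 0.16, ME1 -1.22 ± 0.19, GCLM -1.20 ± 0.22, UGDH -1.13 ± 0.15, PGD -0.95 ± 0.16 and IDH1 -0.81 ± 0.17. The adjusted p ran from 0.00125 to 0.0469. Between SKOV3 and MDA-MB-231, both at 20 µM, KEAP1 differed by 0.65 ± 0.15 (SKOV3 minus MDA-MB-231, edgeR adjusted p = 0.0329) and 6 genes were lower in SKOV3: AKR1C1 -2.59 ± 0.34, AKR1C2 -1.91 ± 0.36, TRIM16L -1.75 ± 0.18, UGDH -1.25 ± 0.15, AKR1C3 -1.04 ± 0.19 and GSR -0.97 ± 0.16. The adjusted p ran from 0.00268 to 0.0173. Values are the first line minus the second, ± the standard error. Dose and line cannot be told apart in the first 2 sets, and the A549 libraries serve in both.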

How the results depend on the processing

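Values here are members called out of 37 at an adjusted p under 0.05. The counts for line against line, and for A549 against both lines, stayed within 1.5 times under every alternative run. The interaction stayed at 0 throughout. For tipifarnib over the lines the 6 became 0 with no replicate block, 0 on control cells only and 0 on MYC cells only, and 0 to 9 with 1 line left out. For MYC over the lines the 1 became 4 with DESeq2, 2 with limma-voom, 2 with no low count filter, 0 with no replicate block, 0 on DMSO libraries only, 0 on tipifarnib libraries only, and 0 without any 1 line. Dropping the block, which leaves the line differences in the error, changed no call for the interaction.

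Within lines, tipifarnib in A549 went from 7 to 11 with DESeq2 and 14 with no low count filter, and was 4 without any 1 A549 library. Leaving out 1 library gave 4 to 11 in SKOV3 (16 with all) and 8 to 10 in MDA-MB-231 (19 with all). MYC in A549 had 3 to 7 (11 with all). MYC in SKOV3 had 7 with no filter and 0 to 2 with 1 library left out (3 with all). MYC in MDA-MB-231 had 3 with DESeq2, 5 with no filter and 0 without any 1 library (1 with all). For responses of A549 against SKOV3 the 10 became 16 with no filter and 4 to 10 with 1 library left out, against MDA-MB-231 the 14 became 2 to 15, and for SKOV3 against MDA-MB-231 the 7 became 11 with no filter and 0 to 7. A left-out library leaves its line 1 complete pair and the fit fewer residual degrees of freedom. The cause of these shifts was not tested.

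For single genes 6710 values were recomputed under an alternative: 5915 kept their side of the threshold, 679 lost it, 116 gained it and 0 changed direction while called. DESeq2 size factors moved the median of all genes by at most 0.018 (log2). Few reads limit GPX2 in SKOV3 and MDA-MB-231 and AKR1B10 in MDA-MB-231.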
